A study of Tursiops truncatus with 17 samples.

Results

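The transcripts described here encode the cytosolic ribosomal proteins, the structural proteins of the ribosome that translates nuclear genes. They were found by symbol: protein-coding genes whose name in either name column of the files is RPL or RPS followed by a protein number, with RPSA and the stalk proteins RPLP0, RPLP1 and RPLP2. This gave 67 genes of 21265, of which 39 belong to the large and 28 to the small subunit, and all 67 symbols are also in the RefSeq gene table for this species. Kinases of the RPS6K family were left out, and ribosomal proteins whose genes carry another form of name were not analysed as members.

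Each ribosome holds a large subunit, which forms peptide bonds, and a small subunit, which reads the messenger RNA. Their proteins are made in near-equal amounts, and most of the messages carry a terminal oligopyrimidine (TOP) tract at the start through which mTOR and LARP1 control their translation and stability. In brain, ribosomal protein messages are found in all cell types and also in dendrites and axons, where they are among the more abundant localized messages.

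The data are messenger RNA sequencing of frozen archived necropsy cerebral cortex from 17 wild-type bottlenose dolphins (Tursiops truncatus), 1 library per dolphin. Their label gives the collection season: non-bloom for 8 and bloom for 9. The numbers that follow a season name are the order of deposition in that group and pair no animals. Age, sex, date and sequencing batch were not analysed here, so season and any batch effect aligned with it cannot be told apart.

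The files hold 1 normalised value per gene and library, read counts divided by library sizes that were scaled by the trimmed mean of M values. Depth was 12346713 to 15635292 reads in non-bloom and 7680050 to 12572653 in bloom libraries. Bloom 5, bloom 6 and bloom 9 stood apart: transcripts of the mitochondrial genome took 57.0%, 33.5% and 77.2% of their reads, against 1.47% to 22.1% in the other 14. This left 4039857, 6719605 and 1753299 nuclear reads in these 3 libraries, so results below are also given without them. The neuronal marker SNAP25, the astrocyte marker GFAP and the myelin gene MBP were present in every library, at no less than 728, 232 and 737.

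Ribosomal protein transcripts took a larger part of the nuclear reads in the 3 mitochondria-rich bloom libraries than in any other library. The 67 genes together held 2.16%, 2.70% and 3.80% of the nuclear reads in the lowest, median and highest non-bloom library (mean 2.80% ± 0.526, SD, n = 8). In the bloom libraries these were 2.52%, 3.81% and 11.1% (mean 4.94% ± 2.92, SD, n = 9). The 3 highest shares were those of bloom 9, at 11.1% (95% exact binomial interval 11.05% to 11.14%), bloom 5, at 8.43% (8.40% to 8.46%), and bloom 6, at 5.29% (5.27% to 5.31%). The interval was at most 0.0465 percentage points to either side in any library. It covers counting error only and takes reads as independent, so it may be too narrow, since the reads were copied by PCR.

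The other 6 bloom libraries lay between 2.52% and 3.81% (mean 3.27% ± 0.494, SD, n = 6), and all but bloom 3 and bloom 7, at 3.81% each, lay inside the non-bloom range. The denominator mattered for bloom 9. As a share of all reads, mitochondrial ones included, the 67 genes took 2.53% in bloom 9, within the non-bloom range of 1.95% to 3.27%. Bloom 5 and bloom 6 were at 3.62% and 3.52% of all reads, above that range. The group means of this share were 2.42% ± 0.397 (SD, n = 8) and 3.02% ± 0.429 (SD, n = 9).

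**Figure D1:**
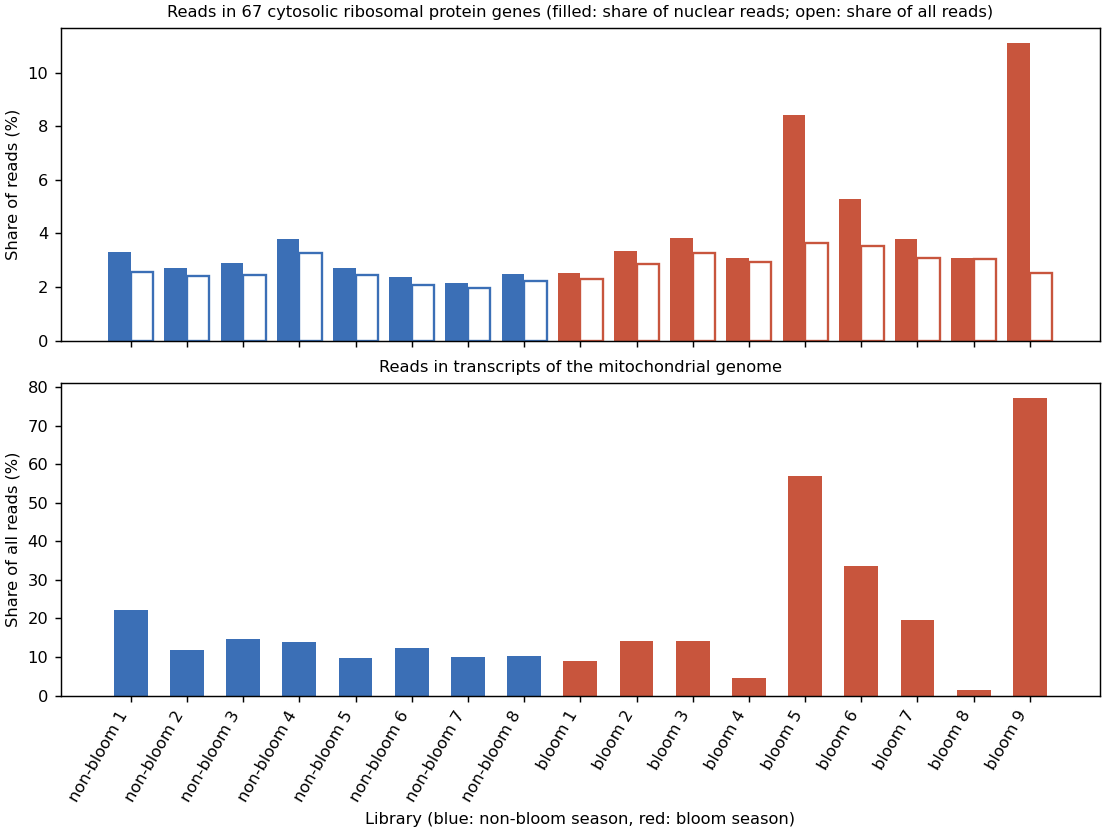
The upper panel plots the share of reads in the 67 ribosomal protein genes for each library, with filled bars as a percent of nuclear reads and open bars as a percent of all reads; the lower panel plots the percent of all reads from the mitochondrial genome. Blue is non-bloom and red is bloom, and the filled bar of bloom 9 stands at 11.1% while its open bar stands at 2.53%, between the non-bloom ones.

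The members were compared between seasons 1 gene at a time, with limma on log2(value + 1) over 13548 genes and Benjamini-Hochberg adjustment. All 67 passed the filter on low reads. None passed the threshold of an adjusted p under 0.05, which 9.16% of all genes tested passed in either direction and 4.47% as higher, and the adjusted p ran from 0.0545 for RPS27L to 0.297 for RPL15. The log2 changes were positive for all 67 members and ran from 0.36 to 0.97, with a median of 0.69, while the median over all genes tested was -0.0034. At an unadjusted p under 0.05 there were 49 members higher and 0 lower, against 16.4% of all genes higher. The number of members called depended on the test. edgeR on the recovered reads called 3, RPS27L and RPS3 among them, beside 6.10% of all genes called higher, and had 64 at an unadjusted p under 0.05, beside 20.9%. DESeq2 called 52, beside 14.4% of all genes called higher. With 1 library left out limma called 21 members without bloom 1 (beside 9.76% of genes), 2 without bloom 4 (7.08%), 3 without bloom 8 (8.53%) and 0 without any other library. The share of all genes called higher in the 14 fits with 0 members also varied, from 0.396% without non-bloom 2 to 4.85% without bloom 9. The number higher at an unadjusted p under 0.05 then ran from 13 without non-bloom 7 (beside 15.1% of genes) to 62 without bloom 1 (19.2%).

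Without bloom 5, 6 and 9 the changes were nearer 0. The median over the members was then 0.17, beside 0.011 over all genes, and 65 of the 67 changes were positive. limma then called 0 members, beside 1.68% of genes called higher. RPS27L was the 1 member at an unadjusted p under 0.05, beside 11.6% of genes higher, and its adjusted p was 0.220. edgeR without these libraries also called 0 members (beside 1.13% of genes), with 1 at an unadjusted p under 0.05 (11.1%).

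**Figure D2:**
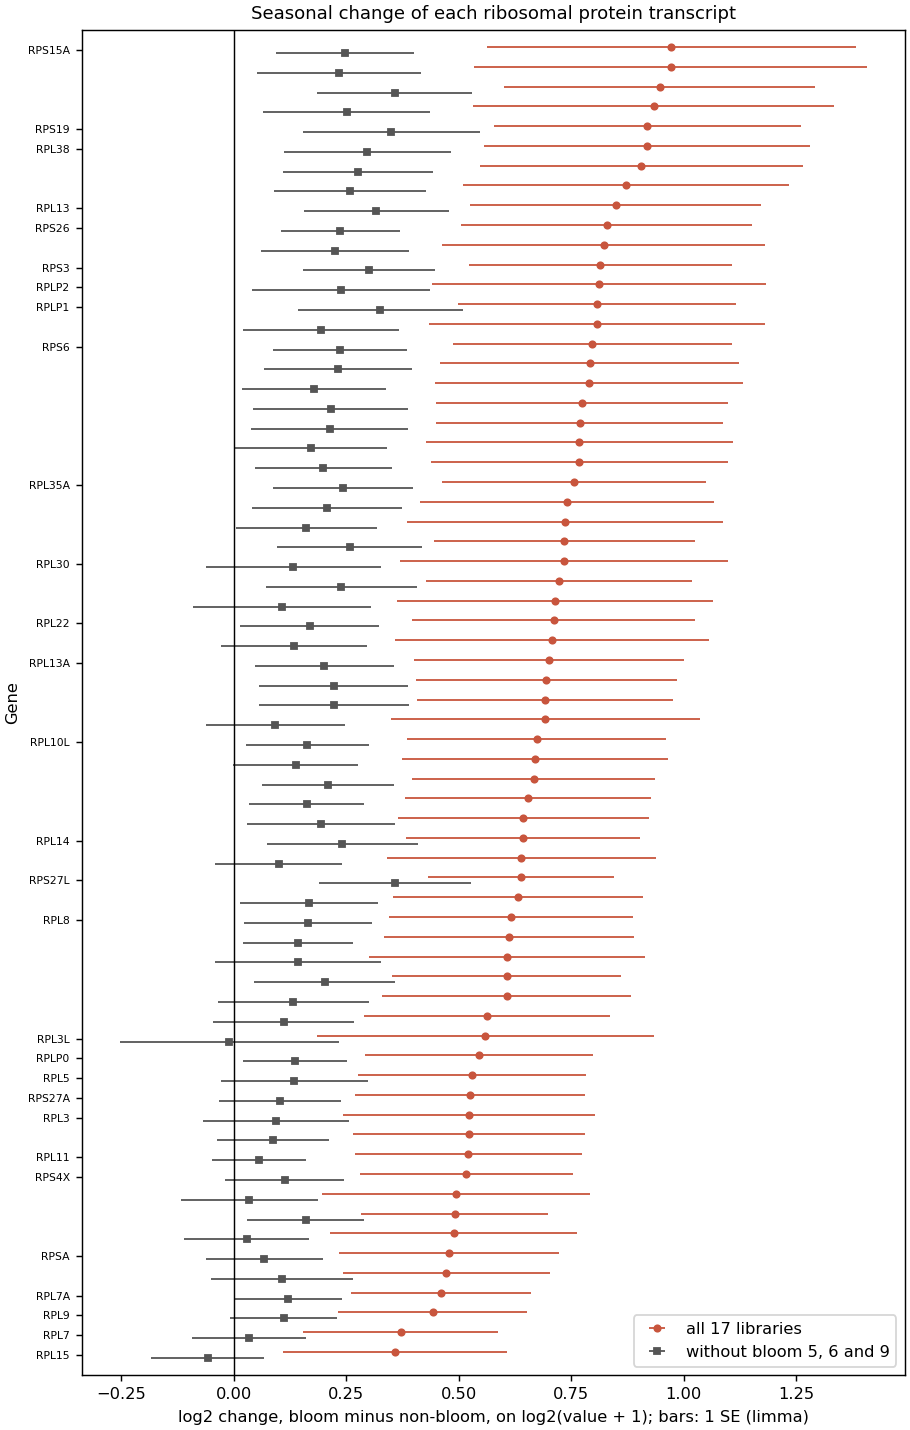
For each of the 67 genes, with those named in the text labelled, the log2 change (bloom minus non-bloom, log2(value + 1) scale) is plotted with 1 SE from limma, as red circles for all 17 libraries and grey squares without bloom 5, 6 and 9. All red circles lie between 0.36 and 0.97, and the grey squares lie between -0.06 and 0.36.

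The members were ordered alike across dolphins. Bloom 9 had the highest value of the 17 libraries in 62 members and bloom 5 in the other 5. In bloom 5, bloom 6 and bloom 9 all 67 members lay above the highest non-bloom dolphin, while 31.9%, 31.9% and 30.6% of all genes tested did so. In bloom 7 this held for 25 members and in bloom 3 for 20, beside 20.1% and 14.5% of genes, and in bloom 8, 4 and 2 for 4, 3 and 1, beside 15.4%, 10.4% and 23.0%.

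Bloom 1 went the other way. None of its members lay above the highest non-bloom dolphin, beside 11.4% of genes, it lay above the non-bloom median in 3 members and it was the lowest of all 17 libraries in 12. The 2 groups overlapped in all 67 members, and 0.657% of all genes tested had groups that did not overlap. Within the non-bloom group, non-bloom 4 was the highest dolphin in 58 members and non-bloom 7 the lowest in 58. The spread over dolphins, as an SD of log2 levels, had a median over the members of 0.31 in non-bloom and 0.84 in bloom, and was larger in bloom for 67 of 67 members. Over all genes tested these medians were 0.29 and 0.50, and the SD was larger in bloom for 11605 of 13548.

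**Figure D3:**
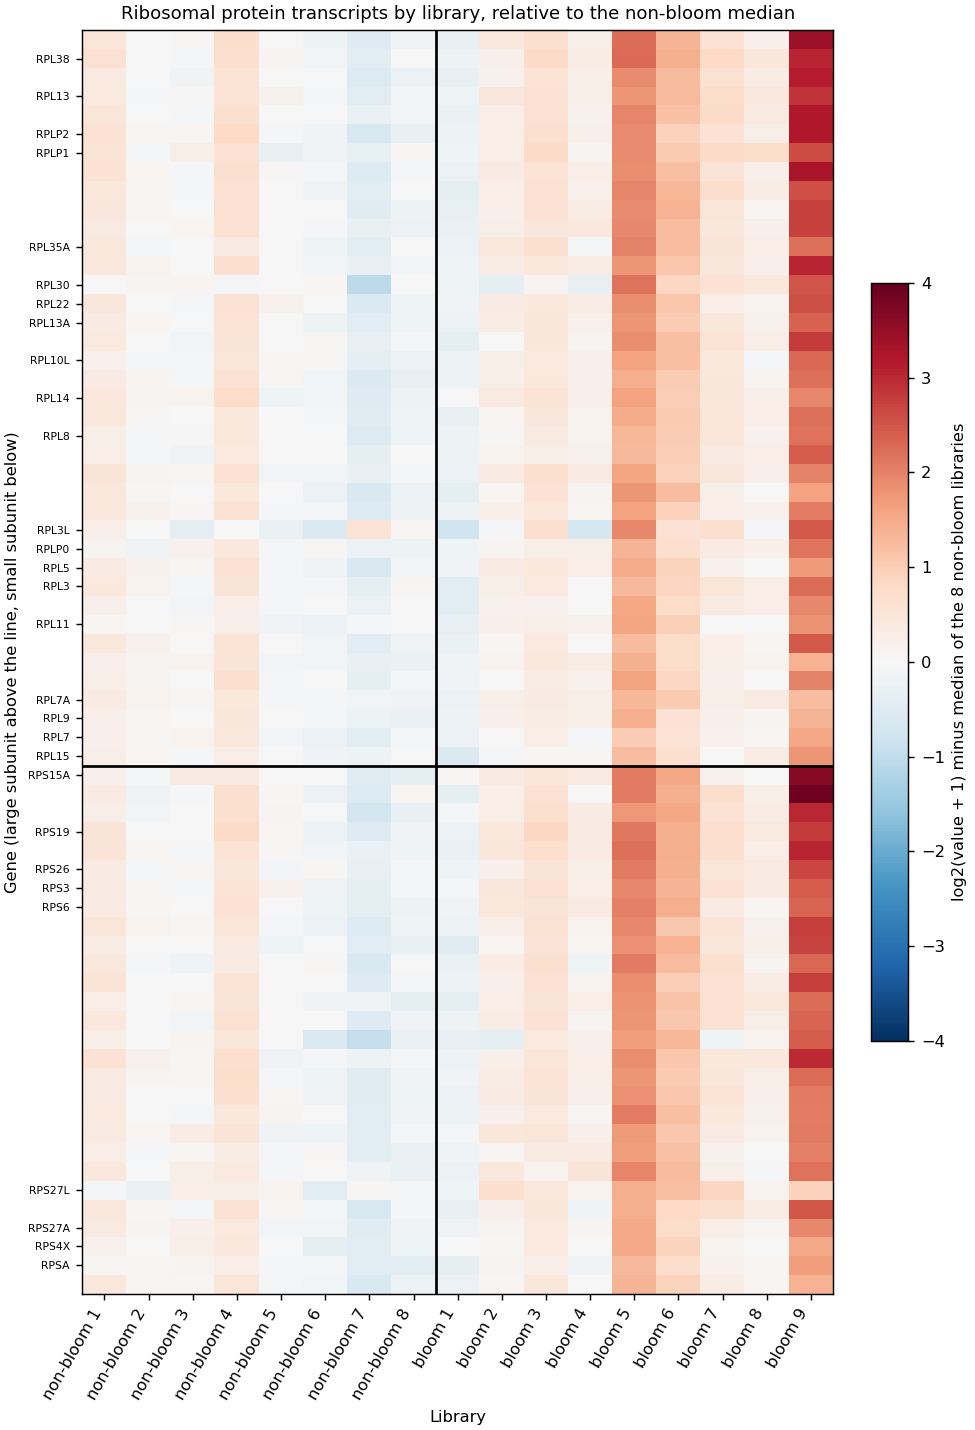
Rows are the 67 genes, those named in the text labelled and all sorted by log2 change within the large (upper) and small (lower) subunit, columns are the 17 libraries, and colour is log2(value + 1) minus the median of the 8 non-bloom libraries. The columns of bloom 5, 6 and 9 are red in all rows, bloom 1 and non-bloom 7 are mostly blue, and RPL3L and RPS27L differ in pattern from the rows around them.

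Of the 6 small-subunit members with the smallest p, RPS3 and RPS26 sit along the path of the messenger RNA. RPS3, at the entry of that path, lies on GeneScaffold_2849 from 724094 to 728340, coordinates of the files in a build not given in the sources used here. RPS3 values were 214, 281 and 411 in the lowest, median and highest non-bloom dolphin and 267, 424 and 1499.6 in the bloom dolphins. Bloom 9 was highest, bloom 1 was below the non-bloom median, and 5 bloom libraries lay above all non-bloom ones. The log2 change was 0.81 (SE 0.29, limma adjusted p = 0.0689, edgeR adjusted p = 0.0487), and 0.30 (SE 0.15, adjusted p = 0.232) without bloom 5, 6 and 9.

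RPS19, the protein most often mutated in Diamond-Blackfan anaemia, was at 279, 403 and 693 in non-bloom and 345, 641 and 2833 in bloom dolphins. Here 4 bloom libraries lay above the highest non-bloom dolphin, and the log2 change was 0.92 (SE 0.34, adjusted p = 0.0753). RPS26, which contacts messenger RNA near the exit of its path, had a log2 change of 0.83 (SE 0.32, adjusted p = 0.0852), with 5 bloom libraries above the non-bloom range.

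RPS6, the ribosomal protein phosphorylated by the S6 kinases, was at 339, 438 and 649.6 in the non-bloom and 393, 591 and 2214 in the bloom dolphins. Bloom 9 was again the highest and bloom 1 the lowest bloom library, and the log2 change was 0.80 (SE 0.31, adjusted p = 0.0849). RPSA, known outside the ribosome as the laminin receptor precursor, had a smaller change of 0.48 (SE 0.24, adjusted p = 0.165), with 149.5, 207 and 248 in non-bloom and 157, 233 and 667 in bloom dolphins. Besides bloom 5, 6 and 9 no bloom library of RPSA lay above the non-bloom range. RPS27A, made as a fusion with ubiquitin, and the X-linked RPS4X were close to it, at 0.53 (SE 0.26) and 0.52 (SE 0.24).

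RPS27L, a paralogue of RPS27 that p53 can induce, had the smallest p of the members. The gene has this name in 1 of the 2 name columns only, RPS27 itself was not analysed here, and whether reads of RPS27 are counted in it could not be checked. It was at 3.95, 5.61 and 7.00 in non-bloom and 4.87, 9.58 and 17.1 in bloom dolphins, and its fewest reads were 20. Its highest library was bloom 5 rather than bloom 9, and 6 of 9 bloom libraries lay above the highest non-bloom dolphin. The log2 change was 0.64 (SE 0.21, limma adjusted p = 0.0545, edgeR adjusted p = 0.0451), and it was 0.36 (SE 0.17) without bloom 5, 6 and 9, the largest of the 67 in that fit. Relative to the median member in the same library, RPS27L was 0.25 higher on the log2 scale in the 6 remaining bloom libraries than in the non-bloom ones, a value for which no test was made.

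The stalk of the large subunit, which recruits elongation factors, is built on RPLP0 with RPLP1 and RPLP2 attached. RPLP1 was at 202, 249 and 376 in non-bloom and 221, 420.1 and 1526 in bloom dolphins, and 6 bloom libraries lay above all non-bloom ones. RPLP2 was at 152, 239 and 415 and then 209, 355 and 2193, and RPLP0 at 226, 264 and 351 and then 236, 309.9 and 1156. For both, only bloom 5, 6 and 9 lay above the non-bloom range. The log2 changes were 0.81 for RPLP1 (SE 0.31, adjusted p = 0.0802), 0.81 for RPLP2 (SE 0.37, adjusted p = 0.128) and 0.55 for RPLP0 (SE 0.25, adjusted p = 0.132).

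**Figure D4:**
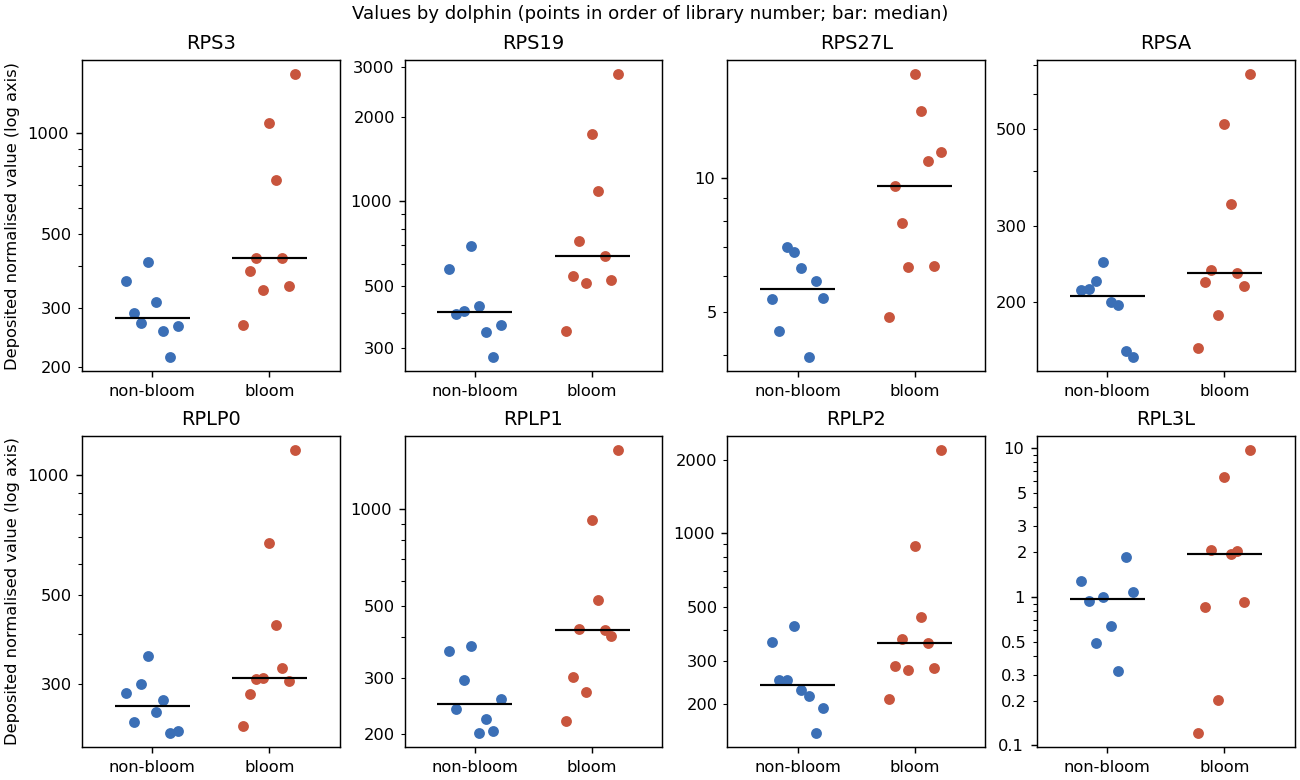
Points are dolphins in order of library number, the vertical axes are deposited normalised values on log axes with a range of their own per gene, and bars are group medians. Bloom 9, the last red point, is the highest in each panel except RPS27L, where bloom 5 is the highest at 17.1, and RPL3L runs from 0.12 to 9.72.

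Other large-subunit proteins with a small p were RPL13, RPL35A, RPL38 and RPL14, with log2 changes of 0.85, 0.76, 0.92 and 0.64 and a limma adjusted p from 0.0799 to 0.0924. RPL38, a protein known for its part in translating Hox messages in the embryo, was at 54.6, 75.8 and 121 in non-bloom and 66.4, 131 and 640.1 in bloom dolphins. Bloom 9 was its highest library and 5 bloom libraries lay above all non-bloom ones. RPL5 and RPL11, which assemble together with a small ribosomal RNA and outside the ribosome can bind MDM2, had log2 changes of 0.53 (SE 0.25) and 0.52 (SE 0.25). For RPL3, a protein near the peptidyl transferase centre, the log2 change was 0.52 (SE 0.28, adjusted p = 0.182), for RPL22 0.71 (SE 0.31, adjusted p = 0.118) and for RPL13A 0.70 (SE 0.30, adjusted p = 0.107).

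The changes nearest to 0 were those of RPL15, RPL7, RPL9 and RPL7A, all of the large subunit, at 0.36, 0.37, 0.44 and 0.46. RPL15 was at 281, 323 and 388 in non-bloom and 216, 337 and 1094 in bloom dolphins. Bloom 1 had the lowest and bloom 9 the highest value of all 17 libraries. Without bloom 5, 6 and 9 its log2 change was -0.06 (SE 0.13). RPL7 overlaps RDH10 in the files, and RPL8 lies inside the span of CACNA1B, and reads of such pairs may be mixed, the use of strand in counting being not given in the sources used here.

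Of the names chosen for their role, RPL10, RPL39L and RPL23A matched no member. RPL10L, known elsewhere as a testis copy of RPL10, has this name in 1 of the 2 name columns only, and whether reads of RPL10 are counted in it could not be checked. It was at 126, 166 and 233 in non-bloom and 143, 219.9 and 820 in bloom dolphins. Its log2 change was 0.67 (SE 0.29, adjusted p = 0.107), and 3 bloom libraries lay above the non-bloom range. Near-identical copies of ribosomal protein genes can share reads, and the sources used here do not say how counting treated them, so values of single members are uncertain to that extent.

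RPL3L, the paralogue of RPL3 in heart and skeletal muscle, was the member with the fewest reads, 2 to 32 in a library. Its values were 0.32, 0.97 and 1.85 in non-bloom dolphins and 0.12, 1.94 and 9.72 in bloom dolphins. The highest values, 9.72 in bloom 9 (95% exact binomial interval 5.66 to 15.6) and 6.37 in bloom 5 (4.36 to 8.99), rested on 17 and 32 reads. Bloom 1, with 2 reads, was under the value of 3 reads in its library, 0.183. The log2 change was 0.56 (SE 0.38, adjusted p = 0.282), and it was -0.01 (SE 0.24) without bloom 5, 6 and 9.

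The 2 subunits were compared by their medians and by their summed reads, with no test. The median log2 change was 0.64 over 39 large-subunit and 0.72 over 28 small-subunit members. Of these, 27 and 22 were higher at an unadjusted p under 0.05 in limma, beside 16.4% of all genes tested. Reads of the small subunit divided by reads of the large subunit gave 0.6001 ± 0.0138 (SD, n = 8) in non-bloom and 0.628 ± 0.0299 (SD, n = 9) in bloom libraries. Of the 9 bloom libraries 5 lay above the non-bloom range of 0.5760 to 0.6191: bloom 6 at 0.675, bloom 5 at 0.673, bloom 3 at 0.6328, bloom 2 at 0.6282 and bloom 4 at 0.6196. Bloom 9 had a ratio of 0.580, near the low end of that range. Without bloom 5, 6 and 9 the bloom libraries had 0.621 ± 0.00820 (SD, n = 6).

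The members' ratios to the non-bloom mean differed widely in bloom 9. Divided by the non-bloom mean, the median member was at 4.87 in bloom 9, 3.27 in bloom 5 and 2.02 in bloom 6. In bloom 9 the lowest ratios were 2.03 for RPS27L and 2.23 for RPL7A, while RPS15A was at 13.6, and in bloom 6 the ratios ran from 1.44 for RPL7 to 3.10 for RPS15A. In bloom 5 they ran from 2.03 for RPL7 to 4.75 for RPL30, beside 6.73 for the low-count RPL3L. In the other 6 bloom libraries the median ratio was between 0.81 in bloom 1 and 1.34 in bloom 3. These genes were picked as the extremes, after their values were seen, and the ratios have no test.

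RPS15A, of the small subunit, was at 5.38, 7.92 and 10.5 in the lowest, median and highest non-bloom dolphin and 8.10, 10.5 and 110.3 in the bloom dolphins. All 9 bloom libraries lay above its non-bloom median and 5 above its non-bloom range, and bloom 9 was the highest. Its log2 change was the largest of the 67 members, 0.97 (SE 0.41, adjusted p = 0.103), and edgeR gave 1.58 (adjusted p = 0.0525). Without bloom 5, 6 and 9 it was 0.25 (SE 0.15, adjusted p = 0.350) by limma.

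Across the 67 members the log2 change had a Spearman rho of -0.14 with the length of the gene on its scaffold and of -0.01 with its mean log2 level. These are descriptions over genes measured in the same libraries. The order of the changes with all libraries and without bloom 5, 6 and 9 had a rho of 0.81, with the same 14 libraries in both.

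Ribosomal protein genes are known hosts of small nucleolar RNAs (snoRNAs), which guide the modification of ribosomal RNA. Of the 67 members 25 held 49 of the 802 snoRNA genes of the files inside their span, and 48 of these 49 had at least 1 read. Their values stayed low, at no more than 3.43, the value of a SNORD15 copy inside RPS3. The libraries were made from messenger RNA, so these values do not measure mature snoRNA.

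Other parts of the ribosome and the translation machinery were compared in the same fit. Of 8 genes of ribosome constituents whose names fall outside the rule, 0 passed by limma or edgeR, beside 4.47% and 6.10% of all genes called higher. At an unadjusted p under 0.05 in limma, 4 were higher, beside 16.4% of all genes. The median log2 change was 0.41, or 0.070 without bloom 5, 6 and 9. FAU, which encodes a small-subunit protein fused to a ubiquitin-like protein, had a log2 change of 0.77 (SE 0.35, adjusted p = 0.126). RACK1, a scaffold protein on the head of the small subunit, had 0.56 (SE 0.25, adjusted p = 0.116). Of a pair of genes named RPL36AL, ENSTTRG00000012779 had a log2 change of 0.65 (SE 0.29) and ENSTTRG00000007651 of 0.22 (SE 0.23). The paralogues RPL22L1, RPL7L1 and RPL26L1, named after their values were seen, were at 0.25, 0.08 and -0.01. The readthrough names RPS10-NUDT3 and RPL17-C18orf32, also looked up after the data were seen, had log2 changes of 0.78 (SE 0.28, adjusted p = 0.0723) and 0.51 (SE 0.26, adjusted p = 0.165).

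Of 17 elongation factors and other genes with TOP messages 1 rose and 0 fell, beside 4.47% and 4.69% of all genes tested (the shares for each list that follows), and the median was 0.34, or 0.026 without bloom 5, 6 and 9. The gene that rose was EIF3E, a subunit of the initiation factor complex eIF3, with 73.1 ± 12.7 in non-bloom (SD, n = 8) and 106 ± 25.04 in bloom (SD, n = 9). The log2 change of EIF3E was 0.51 (SE 0.15, limma adjusted p = 0.0439, edgeR adjusted p = 0.0415). EEF1G, a subunit of elongation factor 1, had a log2 change of 0.72 (SE 0.26, adjusted p = 0.0719). EEF1A1, which carries aminoacyl-tRNA to the ribosome and was picked after its value was seen, had 0.55 (SE 0.30, adjusted p = 0.186), and the value of the initiation factor EIF2A was -0.27 (SE 0.09, adjusted p = 0.0614).

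Initiation and biogenesis factors had log2 changes of both signs, 12 positive and 15 negative among 27 initiation factors and 19 and 18 among 37 biogenesis factors. Of the initiation factors 0 rose and 1 fell, with a median of -0.12. The gene that fell was EIF2B5, the catalytic subunit of the exchange factor eIF2B, from 59.6 ± 6.22 to 39.7 ± 9.39 (log2 change -0.60, SE 0.14, adjusted p = 0.0299). EIF4A2, a helicase of cap-dependent initiation, had a log2 change of -0.61 (SE 0.19, adjusted p = 0.0517) and its cofactor EIF4H one of -0.32 (SE 0.10, adjusted p = 0.0560). Of the biogenesis factors 0 rose and 1 fell, with a median of 0.053. It was RSL1D1, from 97.5 ± 12.5 to 62.2 ± 19.2 (log2 change -0.69, SE 0.17, adjusted p = 0.0311). SBDS, which helps to release eIF6 from the new large subunit, had a log2 change of -0.33 (SE 0.10, adjusted p = 0.0515) and MDN1, a giant ATPase of large-subunit assembly, one of 0.44 (SE 0.15, adjusted p = 0.0629).

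Of 20 genes of mTOR signalling, LARP1 and RNA polymerase I none passed by limma, and the median was -0.025. At an unadjusted p under 0.05 in limma, 2 were higher and 3 lower, beside 2216 and 2581 of all 13548 genes tested. LARP1, which binds the TOP tract, had mean values of 188 ± 49.6 in non-bloom and 114 ± 45.5 in bloom dolphins, and its log2 change was -0.78 (SE 0.25, adjusted p = 0.0534). EIF4EBP1, a repressor of cap-dependent initiation that mTOR switches off, was at 3.98 ± 2.09 and 11.6 ± 9.86 (log2 change 1.13, SE 0.39, limma adjusted p = 0.0617, edgeR adjusted p = 0.0478). POLR1B, a core subunit of RNA polymerase I, had a log2 change of -0.93 (SE 0.31, adjusted p = 0.0579). Of 13 genes of stalled-ribosome rescue 0 rose and 1 fell, with a median of -0.041. It was HBS1L, the GTPase partner of PELO, from 111 ± 9.76 to 87.2 ± 12.2 (log2 change -0.36, SE 0.11, limma adjusted p = 0.0480, edgeR adjusted p = 0.0525). ABCE1, which splits the subunits after rescue, had a log2 change of -0.43 (SE 0.18, adjusted p = 0.0999) and EDF1, a sensor of collided ribosomes, one of 0.50 (SE 0.23, adjusted p = 0.132).

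These 4 calls depended on single libraries. With 1 of the 17 libraries left out, the calls of EIF3E, EIF2B5, RSL1D1 and HBS1L were lost in 12, 7, 8 and 13 of 17 fits, with limma adjusted p up to 0.0834, 0.0672, 0.0692 and 0.0965. No call of these 4 held when the library left out was non-bloom 1, 2, 6, 7 or 8, or bloom 2 or 6. In those same fits limma called 61 to 267 genes in all, against 1241 with all 17 libraries. RSL1D1 was also lost without bloom 7, and EIF3E and HBS1L also without non-bloom 5 or bloom 3, 5, 7 or 9, HBS1L also without non-bloom 3. Leaving out bloom 5, 6 and 9 together gave EIF2B5 a log2 change of -0.38 (adjusted p = 0.0468), while EIF3E, RSL1D1 and HBS1L had an adjusted p of 0.131, 0.0701 and 0.110. With the pan-neuronal marker level in the model, the adjusted p of the 4 genes was 0.349 to 0.500.

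**Figure D5:**
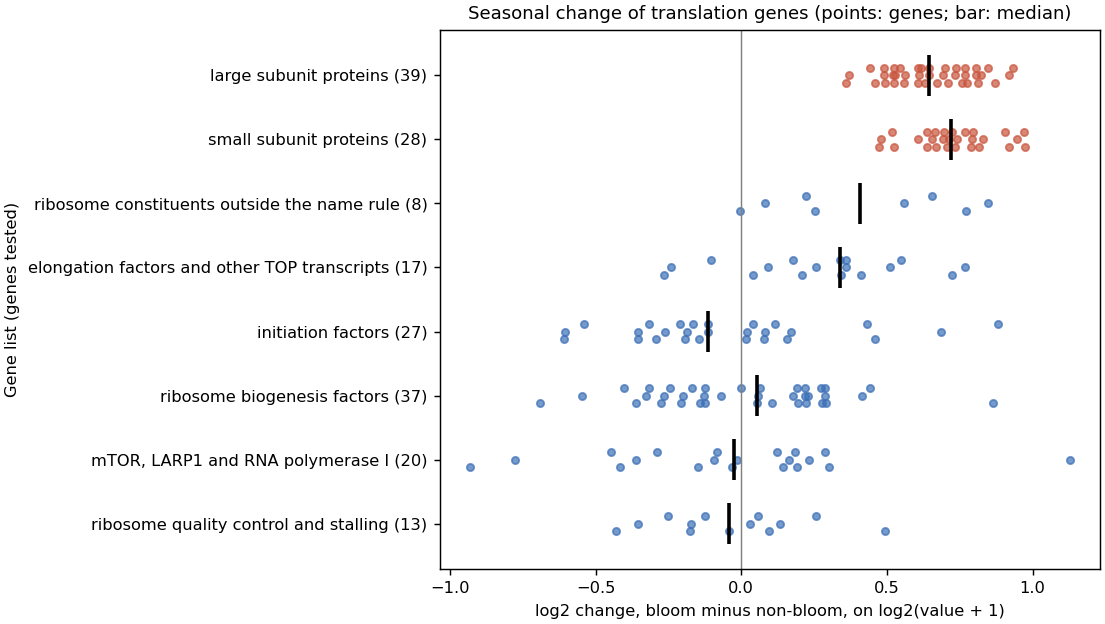
Points are genes, with the number tested in brackets, black bars are list medians, and the horizontal axis is the log2 change (bloom minus non-bloom, log2(value + 1) scale). All points of both subunits lie to the right of 0, with medians of 0.64 and 0.72, while the medians of initiation, biogenesis, mTOR and rescue genes lie between -0.12 and 0.053.

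Bloom 5 and bloom 6 had the lowest pan-neuronal and the highest oligodendrocyte and endothelial marker sums of the 17 libraries, and bloom 9 shared this only in part. In bulk tissue, fewer cells of a type and less RNA per cell cannot be told apart. The summed level of 11 pan-neuronal markers was 8323 to 14040.4 in non-bloom and 2580 to 10712 in bloom libraries, with bloom 5, 6 and 9 at 2580, 3874 and 8071. That of 9 astrocyte markers was 323 to 1837.5 and then 401 to 6862, with bloom 5, 6 and 9 at 6708, 5226 and 6862, and that of 11 oligodendrocyte markers was 1721 to 8088 and then 4470.1 to 19206, with these libraries at 18127, 19206 and 14145. The sum of 9 endothelial markers was highest in bloom 6 and bloom 5, at 2764 and 2322, and lowest of all 17 in bloom 9, at 179. Among these 4 lists SYT1, a synaptic vesicle protein, fell and ERMN of myelin rose by both limma and edgeR. MOG of myelin rose by limma (edgeR adjusted p = 0.0577), and the astrocyte genes ALDH1L1, FGFR3 and ACSBG1 and the endothelial gene KDR rose by edgeR, with limma adjusted p of 0.0580, 0.05004, 0.0923 and 0.0585. None of their markers was at 0 in all libraries. Of the markers of pericytes and smooth muscle KCNJ8 rose by both tests. Of 4 tested neutrophil genes, S100A9 and S100A12 fell by both tests and CSF3R by edgeR (limma adjusted p = 0.0505). The summed level over 5 neutrophil markers, the untested 1 included, was 11.0 to 229 in non-bloom and 0.20 to 16.5 in bloom libraries. The T cell gene CD3G, the only 1 of 8 lymphocyte markers that was tested, fell by limma (edgeR adjusted p = 0.0819). The 8 together summed to at most 8.35 in non-bloom and 5.27 in bloom libraries. Of 6 microglial markers CSF1R fell by edgeR (limma adjusted p = 0.167). None of 3 tested red cell markers passed by either test, nor did the 1 tested of 6 choroid plexus or ependymal markers, and 0 of them had an unadjusted limma p under 0.05.

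With the mean log2 level of the pan-neuronal markers in the model, the median change over the members was 0.35 and 0 had an unadjusted p under 0.05, beside 6.00% of all genes higher. With the log2 ratio of mitochondrial to other reads in the model, the median was 0.52 and 34 members passed (limma, adjusted p under 0.05), beside 8.10% of all genes called higher. The part of astrocyte, oligodendrocyte and endothelial markers in the result was not tested.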

How the data were processed

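Per the labels' protocols, total RNA came from frozen cortex and libraries were made for messenger RNA; per the submitters' processing notes, Trim Galore 0.6.1 and STAR 2.5.2a were used. Counting tool, build and annotation were not named in the sources used here. Signal, the unit of the deposited files, is 1 normalised value per gene and library. Of the nonzero values 100% were whole multiples (within 0.01) of the value of 1 read, and the divisors matched TMM-scaled library sizes. These recovered reads gave depth and the count-based alternatives, in which edgeR called 1123 genes.

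Genes were kept by filterByExpr (minimum count 10, minimum total 15), leaving 13548. Season was tested with limma-trend on log2(value + 1) over all 17 libraries, with no other term. SD, SE and n are over dolphins. Nuclear reads are those outside the mitochondrial genome. The alternatives were other scalings, edgeR, DESeq2, other filters, a pseudocount of 0.1, 2 covariates and libraries left out; edgeR without bloom 5, 6 and 9 was added after seeing the data. The limma fit was tested on simulated data in which genes varied independently, with the same dispersion in both seasons. That simulation does not cover members that move together across dolphins or their larger spread in bloom. Software: limma 3.58.1, edgeR 4.0.16 and DESeq2 1.42.0 under R 4.3.3.

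The members, lists and alternatives were chosen with earlier results of these data known. Named members are the 6 of each subunit with the smallest p, 20 names picked by role, and the 4 changes nearest 0; named list genes are the 3 with the smallest p per list, with FAU and RACK1. Some genes named by these rules are left out of the text but were kept in all fits and counts. Others were named after their values were seen. Levels are not compared between genes, since transcript lengths were not used here. A RefSeq table (assembly mTurTru1.mat.Y) served to check names only, and no sequence was used.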

Additional observations from a re-analysis of the deposited data

Results flagged for a closer look

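In a group, a library was taken to stand apart when its gap to the next, divided by the range of the group, passed Dixon's critical value (0.526 for 8 and 0.493 for 9 libraries). This held in 5 of 58 groups of libraries looked at, where chance flags about 1 in 20. Bloom 9 stood apart above the other bloom libraries in 4 members: its gap was 0.622 of the range for RPL13, 0.567 for RPL3, 0.521 for RPLP0 and 0.660 for RPLP2. Non-bloom 4 stood apart above the other non-bloom libraries in the members' share of all reads, 3.27%, with a gap of 0.536 of the range.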

How the results depend on the processing

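The 0 members called by limma became 3 by edgeR, 52 by DESeq2 and 34 with the mitochondrial ratio as a covariate; with 1 library left out the count was 0 to 21, being 21 without bloom 1, 2 without bloom 4 and 3 without bloom 8. All 34 and all 3 were among the 52. The 49 members at an unadjusted p under 0.05 became 0 with the pan-neuronal covariate and 1 without bloom 5, 6 and 9 by limma or edgeR. With 1 library left out they were 13 to 62. The fewest were 13 without non-bloom 7, 16 without bloom 5, 26 without non-bloom 8, 27 without bloom 6 and 29 without bloom 9. In the same fits 2051 of 13613, 1784 of 13509, 1885 of 13622, 1741 of 13506 and 2408 of 13531 genes tested were higher. The median log2 change of 0.69 became 0.35 with the pan-neuronal covariate, 0.17 without bloom 5, 6 and 9 and 0.15 there by edgeR, and was 0.49 to 0.81 with 1 library left out. The difference in the members' share of nuclear reads, 2.14 percentage points, became 0.474 without bloom 5, 6 and 9, and was 1.37 (without bloom 9) to 2.44 with 1 library left out. Of 812 values of 28 named members over 29 settings 3 changed sign: RPL15 was at -0.0573 (limma) and -0.0545 (edgeR) and RPL3L at -0.00919 (limma) without bloom 5, 6 and 9. The cause was not tested in these cases. Other scalings, filters and the pseudocount changed no count of members by over 1.5 times, but the 1241 genes called in all became 547 with scaling by nuclear reads and 560 with no filter. No paired analysis was possible because each dolphin belongs to 1 season and the labels pair no dolphins. Depth limits RPL3L, with 2 to 32 reads in a library, and bloom 9, where 3 reads are worth a value of 1.71.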
